A study of Mus musculus with 10 samples.

Results

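The genes described here are 10 genes by which astrocytes are usually recognised, Gfap, S100b, Slc1a2, Slc1a3, Aqp4, Gja1, Aldh1l1, Aldoc, Fabp7 and Apoe. They were taken by symbol from an RNAseq matrix of 23230 features in 10 libraries of a mouse glioma model. All 10 were found, each as 1 feature, and all 10 passed the filter on low values in both comparisons. The libraries fall into 3 AstroEGFR*, 4 PT and 3 AstroEGFR* Zfp423. AstroEGFR* are astrocytes cultured from the cortex of C57BL/6 pups, at postnatal day 5 by the labels. They lack Ink4a/Arf and were infected with a vector for EGFR*, the constitutively active human EGFRvIII receptor. AstroEGFR* Zfp423 are the same 3 astrocyte batches after a further infection with a vector for the transcription factor Zfp423. PT are glioma propagating cells grown out of tumours that AstroEGFR* formed in the brain of CD1 Nude mice, with PT1 and PT4 tracing back to batch 1, PT2 to batch 2 and PT3 to batch 3. Every library therefore carries the Ink4a/Arf deletion and EGFR*, and no untransformed astrocyte was included. Cells were used below passage 10, and each culture gave 1 library. The medium held fetal bovine serum for AstroEGFR*, whereas PT were kept on laminin in serum-free medium with EGF and FGF2, so tumour growth and medium cannot be told apart in that comparison.

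Astrocytes take up glutamate and potassium released by neurons, move water through channels at their endfeet, share metabolites through gap junctions and supply lipids in lipoprotein particles. The genes that carry out these tasks are switched on at different times: Slc1a3 and Fabp7 are already on in radial glia, the progenitors from which astrocytes arise, whereas Slc1a2 and Aqp4 belong to more mature cells, and Gfap is raised in reactive astrocytes. Apoe is also made by microglia, and S100b, Fabp7 and Slc1a3 are found in other glial or progenitor cells, so none of these genes marks an astrocyte on its own.

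The values are FPKM, fragment counts scaled to the length of the transcript and to the size of the library, so levels of different genes can be set side by side within a library. Depth, estimated relative to that of PT1, came to 0.0717 for AstroEGFR*3, to 0.093 for PT3 and to at least 0.507 for the other libraries, so low values of those 2 libraries are the least precise. Histone genes and small non-coding RNA took between 0.801% and 6.12% of the FPKM in batches 1 and 3 of AstroEGFR* and PT, but 29.7% in AstroEGFR*2, 34.4% in PT2 and between 36.0% and 54.8% in AstroEGFR* Zfp423. Zfp423 itself was listed at 4.30, 3.25 and 3.48 FPKM in AstroEGFR*1 to AstroEGFR*3 and at 15.7, 9.73 and 105 FPKM after infection with its vector, higher in all 3 batches. Gapdh, which every cell uses, was listed between 0.0106 and 50.1 FPKM, so a value near 0 need not mean that a transcript was absent. The libraries labelled AstroEGFR* Zfp423 of batches 1 and 2 stood apart: markers shared by microglia and other macrophages summed to 2087 and 1295 FPKM there and to at most 42.2 FPKM in any other library, and in batch 2 the 10 astrocyte genes summed to 63.1 FPKM against 1899 FPKM in AstroEGFR*2. The levels of the astrocyte genes thus go against the label of an astrocyte culture in batch 2, and the Zfp423 comparison is given below also without these libraries.

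In AstroEGFR* the 10 genes were all expressed at 1 FPKM or more in every library, and together they took 0.504%, 0.359% and 0.339% of the FPKM in AstroEGFR*1 to AstroEGFR*3. Leaving out small non-coding RNA and histones, which were abundant in AstroEGFR*2, the shares were 0.509%, 0.511% and 0.357%. By the median over libraries, the order from high to low was Fabp7 (778 FPKM), Aldh1l1 (149), Apoe (146), Gja1 (117), Gfap (109), Aldoc (37.3), Aqp4 (31.3), Slc1a3 (25.0), Slc1a2 (9.50) and S100b (2.15). Fabp7 lay above Aldh1l1 in all 3 libraries without overlap, and every other pair of neighbours in this order overlapped. Fabp7 was at or above at least 99.4% of all features of each AstroEGFR* library and S100b at or above 52.9% to 61.3%. In PT the order by median again began with Fabp7 (1224 FPKM) and ended with Slc1a2 (3.64 FPKM), and all neighbours overlapped.

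**Figure D1:**
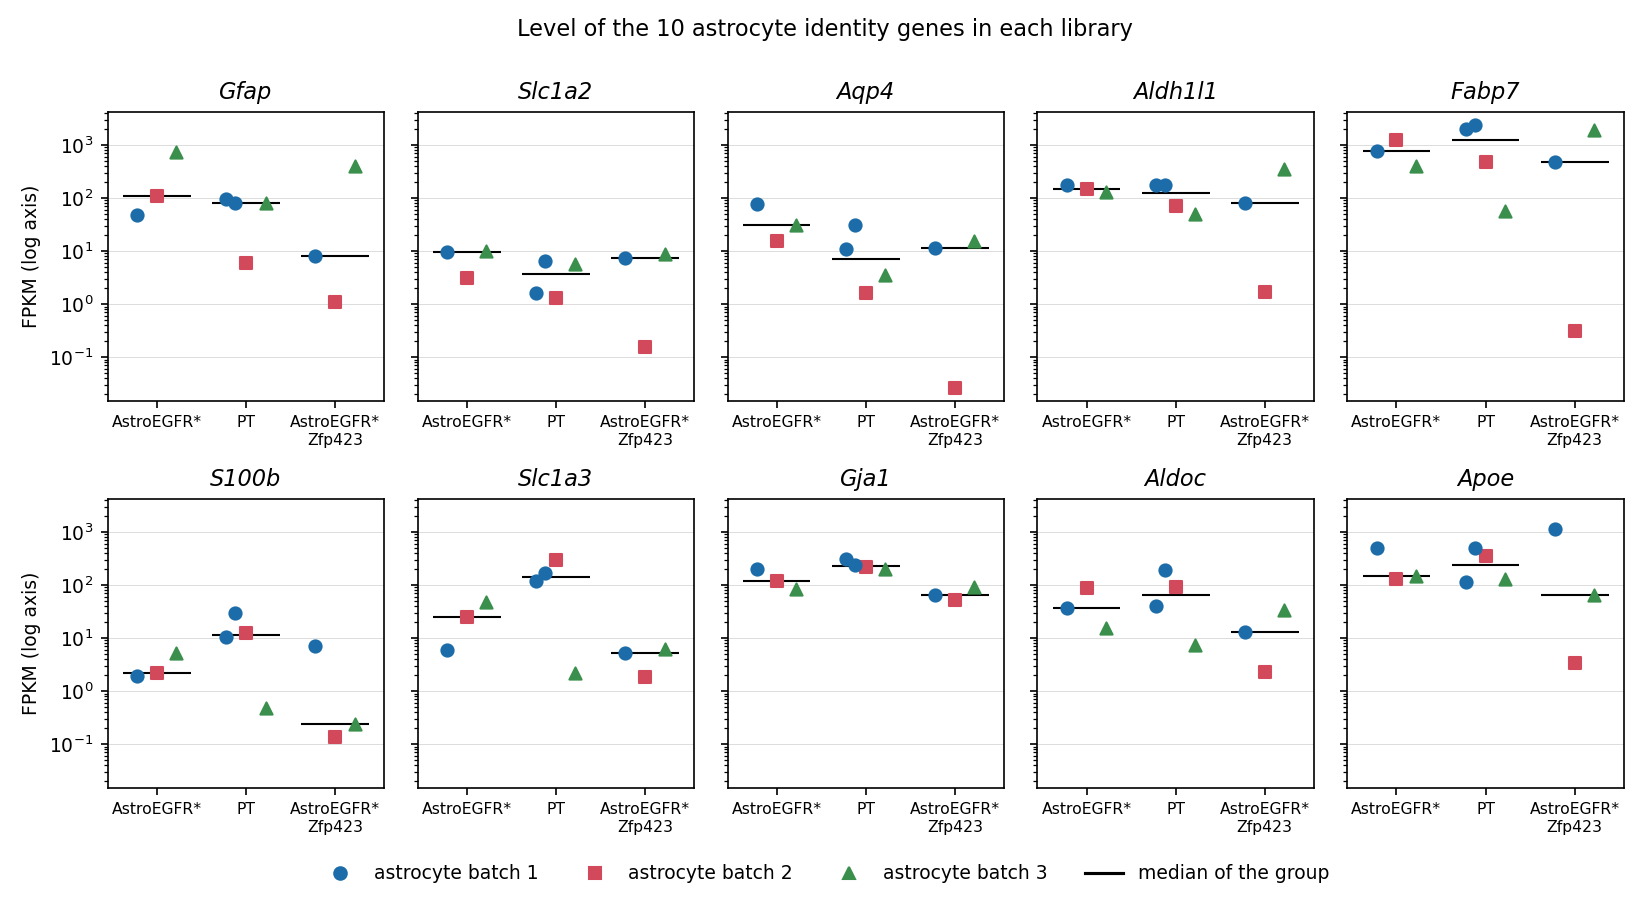
Level of the 10 genes in each library. The vertical axis is FPKM on a log axis, the horizontal axis the group, each point is 1 library coloured by its astrocyte batch, and bars are group medians. In 9 of the 10 panels the PT points overlap those of AstroEGFR*, while Gja1 does not, and the lowest AstroEGFR* Zfp423 point is that of batch 2 in every panel.

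The sequence before the transcription start is shown for Gfap and Slc1a3, since these 2 genes gave estimates of opposite sign in PT and were both lower in all 3 batches with the Zfp423 vector. The windows are the 250 bases before the RefSeq start in GRCm38.p6, on the minus strand at chr11:102897201-102897450 for Gfap and at chr15:8710808-8711057 for Slc1a3. They are written 5′ to 3′ along the gene, and capitals mark matches on either strand to the 5 motifs searched.
Gfap: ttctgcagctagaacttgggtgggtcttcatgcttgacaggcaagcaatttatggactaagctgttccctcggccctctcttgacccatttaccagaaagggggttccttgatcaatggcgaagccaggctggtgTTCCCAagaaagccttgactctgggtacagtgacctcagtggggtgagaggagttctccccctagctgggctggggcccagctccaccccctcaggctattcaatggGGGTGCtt
Slc1a3: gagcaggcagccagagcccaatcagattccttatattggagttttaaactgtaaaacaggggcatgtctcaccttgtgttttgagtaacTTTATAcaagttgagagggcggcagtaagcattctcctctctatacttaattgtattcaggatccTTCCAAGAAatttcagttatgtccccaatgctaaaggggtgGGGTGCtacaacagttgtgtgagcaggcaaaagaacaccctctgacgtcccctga
The motifs were a half-site of the Zfp423 palindrome (GCACCC), an NFI half-site (TTGGCA), a STAT site (TTCNNNGAA), an RBPJ site (TGGGAA) and a TATA box (TATAAA). Both windows held the Zfp423 half-site on the minus strand of the gene, from 8 bases before the start in Gfap and from 55 bases before it in Slc1a3, and 13.3% of 32817 promoter windows of this length held it. Gfap also held the RBPJ site, found in 21.6% of windows, and Slc1a3 the STAT site (7.01%) and the letters of the TATA box (12.4%), the latter on the minus strand of the gene from 161 bases before the start. Windows for 9 of the 10 genes were used, and none for Aqp4. In at least 1 window, the Zfp423 half-site was found in 4 of the 9, the RBPJ site in 5, the NFI half-site in 3 against 12.3% of all windows, and the STAT site and the TATA letters in 2 each. The windows of Gja1 and Slc1a2 held none of these letters. Some genes had more than 1 window, so the counts of genes are not on the same footing as the share of windows, and a match is not evidence of binding.

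The first comparison, PT against AstroEGFR*, asks what changes between tumorigenic astrocytes and the glioma cells that they form. None of the 10 genes passed the threshold of an adjusted p below 0.05 in limma, where 1.24% of all 12261 features did (152 features, 113 of them lower in PT and 39 higher). The unadjusted p was below 0.05 for 2 of the 10, Aqp4 and Gja1, and for 1664 of all features. The count of 152 fell when any 1 library was left out, which also makes a group smaller. It was 7 without AstroEGFR*1, 123 without AstroEGFR*2 and 54 without AstroEGFR*3. Without PT1 to PT4 in turn it was 97, 70, 104 and 58. None of the 10 genes passed in any of these fits. The estimates of 5 genes were above 0 and of 5 below, with a median of -0.075 against 0.03 over all features. This balance depended on single libraries: it was 6 above and 4 below without PT3 (median 0.62), 3 above and 7 below without PT4 (-0.53) or without AstroEGFR*3 (-0.44), and 4 above and 6 below with the batch as a block (-0.33). In bulk cultures such as these, fewer cells of a type and less RNA per cell cannot be told apart.

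Comparing each PT with the AstroEGFR* of its own batch, 3 of the 10 genes (Aqp4, Slc1a2 and Aldh1l1) were listed lower in all 4 PT, against 18.2% of all features, although Aldh1l1 was lower by no more than 1.02-fold in PT1 and PT4, and 1 (Gja1) was higher in all 4, against 21.7%. With the batch as a block in limma, 475 features passed in place of 152 (3.87%), and 1 of the 10 did: Aqp4 fell in PT by 2.45 on the log2 scale (adjusted p = 0.0395).

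The second comparison, AstroEGFR* Zfp423 against AstroEGFR* with the batch as a block, asks what forced expression of Zfp423 changes in each batch. No feature passed the threshold in limma (0% of 12366), and at an unadjusted p below 0.05 there were 913 features and 3 of the 10 genes, Gfap, Aqp4 and Slc1a3. The estimates of all 10 genes were below 0, with a median of -1.77 against 0.02 over all features. In all 3 batches 4 genes were lower, Gfap, Aqp4, Slc1a2 and Slc1a3, against 15.2% of all features, and in batches 1 and 2 together 8 were, all but S100b and Apoe, against 30.3%. Without batch 2, the number of features that passed was 51 and none of the 10 did, the estimates of 3 genes were above 0 and of 7 below, and the median was -0.34. Without batch 1, none of the 10 passed and the median was -2.33, and without both of these batches a single pair is left, batch 3, in which 4 of the 10 were higher and 6 lower. Both comparisons use the same 3 AstroEGFR* libraries, so their results are not independent.

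**Figure D2:**
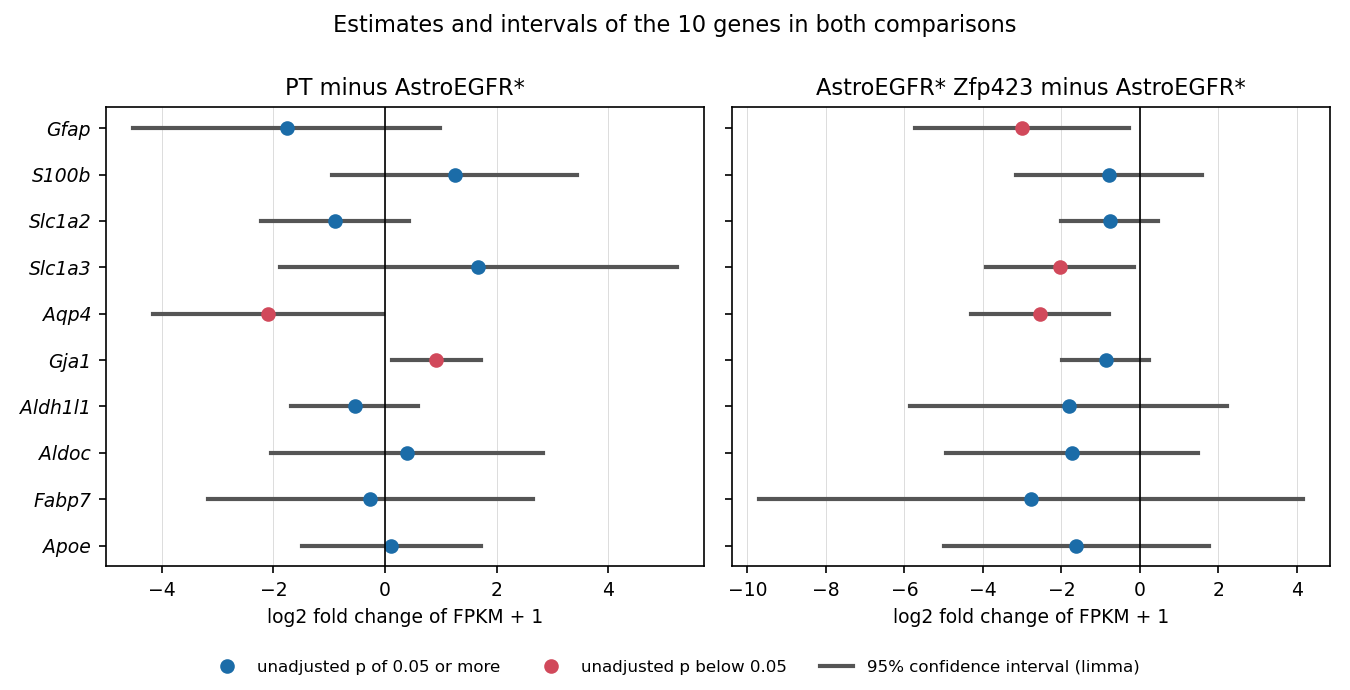
Estimates of the 10 genes in both comparisons. Points are log2 fold changes of FPKM + 1 from limma, bars are 95% confidence intervals, and red points have an unadjusted p below 0.05. The left panel holds PT minus AstroEGFR* and the right panel AstroEGFR* Zfp423 minus AstroEGFR*, where all 10 points lie below 0 and the interval of Fabp7, from -9.71 to 4.14, is the widest.

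Gfap, the intermediate filament protein of astrocytes, was listed at 47.3, 109 and 725 FPKM in AstroEGFR*1 to AstroEGFR*3. In PT1 to PT4 it was at 95.6, 5.95, 81.2 and 81.5 FPKM. With the Zfp423 vector it was at 7.94, 1.11 and 393 FPKM in batches 1 to 3. AstroEGFR*3 and its Zfp423 culture stood highest of all libraries, PT2 lay far below the other PT, and all groups overlapped. The estimate for PT was -1.76 on the log2 scale (95% confidence interval from -4.52 to 0.99, limma adjusted p = 0.585, higher in 2 of 4 PT and lower in 2). An exact permutation test of the 7 libraries, two-sided, gave p = 0.4. With Zfp423 the estimate was -3.01 (from -5.74 to -0.28, adjusted p = 0.628, lower in 3 of 3 batches), and the exact sign-flip permutation test over 3 pairs gave p = 0.25, the smallest that 3 pairs allow. The PT estimate was -0.66 without AstroEGFR*3 and -0.85 without PT2, and that with Zfp423 was -1.66 without batch 2.

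S100b, a calcium-binding protein, was the least abundant of the 10 in AstroEGFR*, at 1.91, 2.15 and 5.33 FPKM. PT1, PT2 and PT4 were at 10.7, 12.4 and 29.9 FPKM and PT3 at 0.479 FPKM. The Zfp423 cultures were at 6.99, 0.138 and 0.237 FPKM in batches 1 to 3. So 3 of 4 PT lay above every AstroEGFR* library and PT3 below all of them, while with Zfp423 batch 1 lay above and batches 2 and 3 below. Neither comparison passed: the log2 estimate was 1.25 for PT (from -0.95 to 3.44, adjusted p = 0.635, exact permutation p = 0.371) and -0.79 with Zfp423 (from -3.16 to 1.58, adjusted p = 0.808, exact permutation p = 0.5). The first was 2.13 without PT3 and 0.66 without PT4, and the second was -1.91, -0.45 and -0.0075 without batches 1, 2 and 3 in turn.

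The 2 glutamate transporters had estimates of opposite sign in PT, and neither passed. Slc1a3 encodes GLAST, the transporter already present in radial glia, and it was listed at 6.02, 25.0 and 48.2 FPKM in AstroEGFR*1 to AstroEGFR*3. PT1, PT2 and PT4 held 117, 296 and 170 FPKM, and PT3 2.20 FPKM. The Zfp423 cultures held 5.29, 1.85 and 6.13 FPKM. The same 3 PT that were high for S100b lay above all AstroEGFR* for Slc1a3, by 19.4-fold, 11.9-fold and 28.3-fold over AstroEGFR* of their batch, and PT3 was 21.9-fold lower than AstroEGFR*3. With all 4 PT the log2 estimate was 1.67 (from -1.88 to 5.23, adjusted p = 0.71, exact permutation p = 0.4), and it was 3.13 without PT3 (adjusted p = 0.12), 0.95 without PT2 and 0.89 without AstroEGFR*1. With Zfp423 the estimate was -2.04 (from -3.93 to -0.15, adjusted p = 0.628, lower in 3 of 3 batches), and the difference within batch 1 was -0.16. With 1 batch left out, the Zfp423 estimate ranged from -2.99 to -1.47.

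Slc1a2 encodes GLT-1, the main glutamate transporter of mature astrocytes, and was listed below 10 FPKM in all libraries. AstroEGFR*1 to AstroEGFR*3 were at 9.50, 3.13 and 9.99 FPKM, PT1 to PT4 at 1.59, 1.32, 5.68 and 6.57 FPKM, and the Zfp423 cultures at 7.40, 0.154 and 8.90 FPKM. All 4 PT and all 3 Zfp423 cultures were below AstroEGFR* of their batch, but the groups overlapped because AstroEGFR*2 was low. The log2 estimates were -0.90 for PT (from -2.23 to 0.42, adjusted p = 0.558, exact permutation p = 0.229) and -0.77 with Zfp423 (from -2.01 to 0.47, adjusted p = 0.678). Without AstroEGFR*2 the first was -1.36, and without batch 2 the second was -0.24.

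Of the membrane channels, Aqp4, the water channel of astrocyte endfeet, was listed at 75.5, 15.8 and 31.3 FPKM in AstroEGFR*1 to AstroEGFR*3. PT1 to PT4 held 10.7, 1.60, 3.56 and 30.4 FPKM of it. With Zfp423 it was at 11.2, 0.0266 and 15.5 FPKM. Relative to AstroEGFR* of its batch it was 7.06-fold lower in PT1, 9.87-fold in PT2, 8.80-fold in PT3 and 2.48-fold in PT4, so that all batches showed the same direction although the groups overlapped. Without the block the estimate was -2.09 (from -4.15 to -0.03, adjusted p = 0.361, exact permutation p = 0.114), and the adjusted p ranged from 0.0338 to 0.687 over 17 alternatives. With Zfp423 all 3 libraries lay below all AstroEGFR* libraries, as was the case for 11.5% of all features. The gap was narrow and lay between batches, with 15.5 FPKM in the Zfp423 culture of batch 3 and 15.8 FPKM in AstroEGFR*2. Within batch 3 Aqp4 was 2.02-fold lower with Zfp423. Over all batches its estimate was -2.55 (from -4.31 to -0.79, adjusted p = 0.628), with an exact permutation p of 0.25. With 1 batch left out, this estimate ranged from -3.34 to -1.81.

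Gja1 encodes connexin 43, the main gap junction protein of astrocytes, and varied least of the 10, by 5.91-fold from the lowest to the highest library. AstroEGFR*1 to AstroEGFR*3 held 196, 117 and 85.0 FPKM, and PT1 to PT4 held 309, 218, 202 and 236 FPKM. With Zfp423 it was at 65.3, 52.2 and 91.1 FPKM. It was the only 1 of the 10 for which PT and AstroEGFR* did not overlap, which held for 14.8% of all features. The estimate for PT was 0.92 (from 0.12 to 1.72, adjusted p = 0.304), and the exact permutation test gave p = 0.0286, the smallest that 3 against 4 libraries allow and not corrected for the 10 genes. This test, as for the other genes, exchanges all 7 libraries and ignores their batches. With the labels permuted only within batches, where the smallest possible p is 0.0833, the exact p was 0.167 for Gja1 and at least 0.167 for each of the other genes. With Zfp423 it was -0.88 (from -1.99 to 0.24, adjusted p = 0.641, lower in 2 of 3 batches), and it was -0.53 without batch 1 and -1.36 without batch 3.

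The metabolic enzymes did not separate the groups. Aldh1l1, an enzyme of folate metabolism, was nearly even in AstroEGFR*, at 178, 149 and 127 FPKM. It was at 178 and 175 FPKM in PT1 and PT4, close to the 178 FPKM of AstroEGFR*1, and at 71.9 and 49.9 FPKM in PT2 and PT3. The Zfp423 cultures spread most, at 81.8, 1.69 and 356 FPKM. Batches 1 and 2 were thus lower and batch 3 higher than AstroEGFR* with Zfp423, and PT2 and PT3 were about as far below their batch as each other, by 2.08-fold and 2.56-fold. The estimates were -0.54 for PT (from -1.68 to 0.60, adjusted p = 0.705, exact permutation p = 0.371) and -1.81 with Zfp423 (from -5.86 to 2.23, adjusted p = 0.746, exact permutation p = 0.75). Without PT3 the first was -0.20, and the second was 0.18 without batch 2 and -3.46 without batch 3.

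Aldoc, the brain isoform of the glycolytic enzyme aldolase, was listed at 37.3, 87.4 and 15.3 FPKM in AstroEGFR*, while PT1 to PT4 held 40.4, 90.9, 7.53 and 191 FPKM. With Zfp423 it was at 12.8, 2.25 and 33.1 FPKM. PT1 and PT2 lay 1.08-fold and 1.04-fold above AstroEGFR* of their batch and PT4 5.12-fold above it. The estimates were 0.39 for PT (from -2.05 to 2.83, adjusted p = 0.923) and -1.73 with Zfp423 (from -4.94 to 1.49, adjusted p = 0.704). Without PT4 the first of these was -0.26, and without AstroEGFR*3 it was -0.22. The second was -0.21 without batch 2 and -3.12 without batch 3.

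Fabp7, the brain fatty acid-binding protein of radial glia and astrocytes, had the highest median of the 10 in each group and varied most over the 10 libraries. It was not the highest in every library: Gfap lay above it in AstroEGFR*3 and Apoe in the Zfp423 culture of batch 1, and it ranked 4th in PT3 and 7th in the Zfp423 culture of batch 2. AstroEGFR*1 to AstroEGFR*3 were at 778, 1261 and 393 FPKM, PT1 to PT4 at 1964, 484, 58.0 and 2411 FPKM, and the Zfp423 cultures at 469, 0.316 and 1906 FPKM. Both PT of batch 1 lay above all AstroEGFR*, and PT2 and PT3 below AstroEGFR* of their batch by 2.61-fold and 6.78-fold. The estimates were -0.26 for PT (from -3.18 to 2.65, adjusted p = 0.955, exact permutation p = 0.914) and -2.79 with Zfp423 (adjusted p = 0.771, exact permutation p = 0.75). Without PT3 the first was 0.86, and the second was 0.77 without batch 2 and -5.32 without batch 3.

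Apoe, an apolipoprotein made by astrocytes and microglia, was listed at 491, 129 and 146 FPKM in AstroEGFR*, while PT1 to PT4 held 114, 352, 131 and 507 FPKM. The Zfp423 cultures were at 1130, 3.39 and 64.2 FPKM. PT1 and PT4, both from batch 1, differed from each other by more than AstroEGFR* did, and no group stood apart. The estimates were 0.11 for PT (from -1.49 to 1.71, adjusted p = 0.964, exact permutation p = 0.914) and -1.62 with Zfp423 (from -5.00 to 1.76, adjusted p = 0.728). The sign of the PT estimate turned with the batch as a block (-0.025), and it ranged from -0.27 to 0.73 with 1 library left out. The estimate with Zfp423 was 0.014 without batch 2 and -3.03 without batch 1.

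Within PT the libraries fell into unlike profiles. Counting differences from AstroEGFR* of the same batch of at least 1 on the log2 scale, 4 genes were higher in PT1 (Gfap, S100b, Slc1a3 and Fabp7), against 7.98% of all features, and 3 lower (Slc1a2, Aqp4 and Apoe), against 10.6%. In PT4, 4 were higher (S100b, Slc1a3, Aldoc and Fabp7), against 9.84%, and 1 lower (Aqp4), against 10.7%. PT2 had 3 higher (S100b, Slc1a3 and Apoe), against 13.9%, and 4 lower (Gfap, Aqp4, Aldh1l1 and Fabp7), against 16.5%. In PT3, 6 were lower (Gfap, S100b, Slc1a3, Aqp4, Aldh1l1 and Fabp7), against 14%, and 1 higher (Gja1), against 8.94%. The 10 genes took 0.755% of the FPKM in PT1 and 1.03% in PT4, but 0.252% in PT2 and 0.112% in PT3. Leaving out small non-coding RNA and histones, of which PT2 held most, these shares were 0.761%, 1.04%, 0.384% and 0.119%. Fabp7 weighed most in the shares of PT1 and PT4, at 1964 and 2411 FPKM of sums of 2841 and 3839 FPKM. Each of these comparisons sets 1 library against 1 other, so it has no replicate check.

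With Zfp423 the batches also differed. In batch 2 all 10 genes were lower than in AstroEGFR*2 by at least 1 on the log2 scale, where 12.1% of all features were, with a median of -4.40 against 0.03. Their share of the FPKM was 0.00902% against 0.359% in AstroEGFR*2, or 0.0141% against 0.511% without small non-coding RNA and histones, and 4 of them (S100b, Slc1a2, Aqp4 and Fabp7) were listed below 1 FPKM. Gja1 differed least, with 52.2 FPKM against 117 FPKM, and Fabp7 most, with 0.316 FPKM against 1261 FPKM. In batch 1, 5 genes were lower by at least 1 (Gfap, Aqp4, Gja1, Aldh1l1 and Aldoc), against 8.1% of all features, and 2 higher (S100b and Apoe), against 11.7%. In batch 3, 3 were lower (S100b, Slc1a3 and Apoe), against 17.2%, and 3 higher (Aldh1l1, Aldoc and Fabp7), against 10.3%. The 10 genes summed there to 2875 FPKM against 1587 FPKM in AstroEGFR*3, of which Fabp7 alone held 1906 and 393 FPKM. Their share was 0.334% against 0.339%, or 0.740% against 0.357% without small non-coding RNA and histones. By any amount, 6 of the 10 genes were lower in batch 3 and 4 higher. The share of small non-coding RNA and histones also differed between the 2 conditions, at 0.849% and 36.0% in batch 1 and at 4.88% and 54.8% in batch 3, but at 29.7% and 36.1% in batch 2. With these features removed and the rest rescaled, none of the 10 genes passed and none turned its sign with Zfp423.

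**Figure D3:**
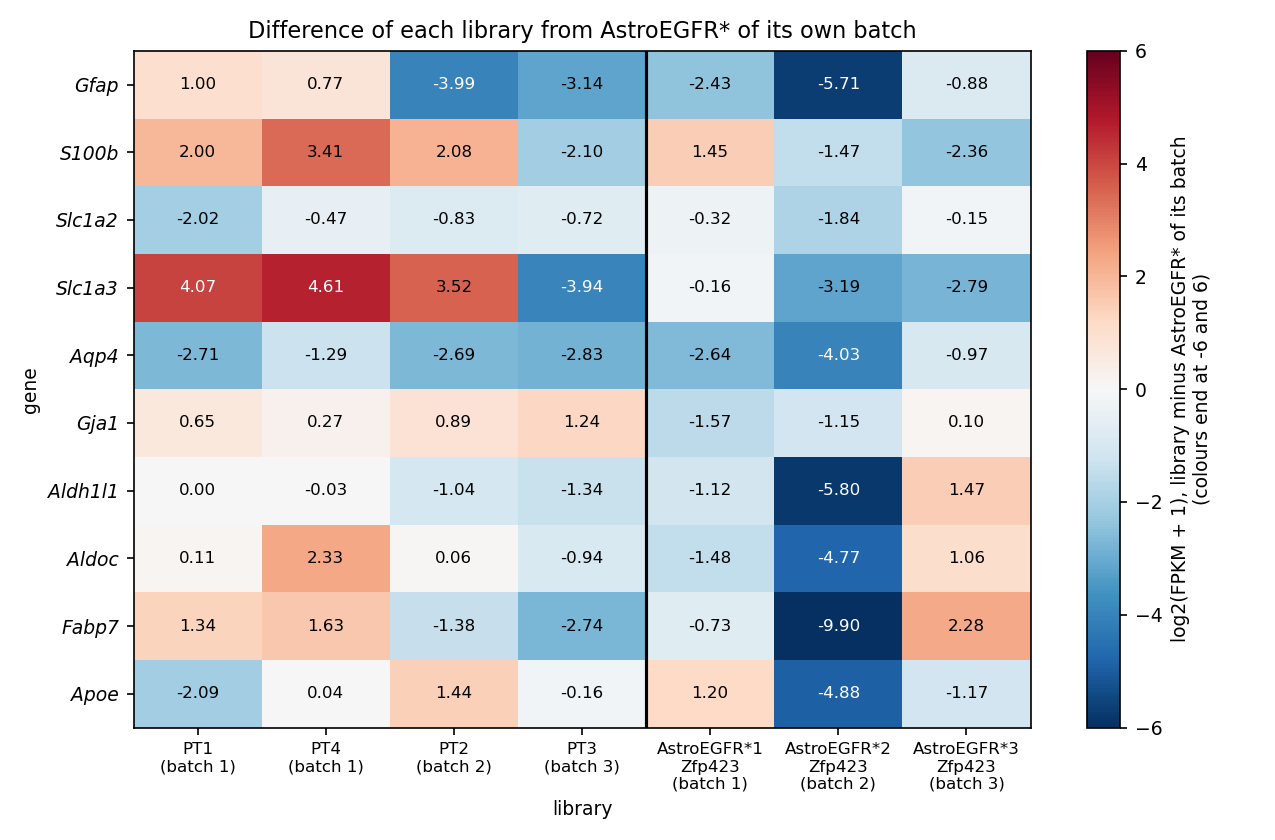
Difference of each library from the AstroEGFR* library of its batch. Rows are genes, columns are libraries, and each cell gives log2(FPKM + 1) of the library minus that of AstroEGFR*, with red for higher and blue for lower. The column of the Zfp423 culture of batch 2 is blue in all 10 rows, and Aqp4 is blue in all 7 columns.

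Markers of other cell types differed between the same libraries. The 13 microglia markers summed to 9.14 to 42.2 FPKM in AstroEGFR* and to 2.67 to 36.7 FPKM in PT, but to 2087 and 1295 FPKM in the Zfp423 cultures of batches 1 and 2 and to 1.28 FPKM in that of batch 3. All 13 were higher than in AstroEGFR* in batches 1 and 2, each by at least 1 on the log2 scale. The complement gene C1qa, which microglia and other macrophages make, was at 433 and 290 FPKM there and at 0 in batch 3, and Csf1r, a receptor on which both depend, was at 202, 108 and 0.0686 FPKM. Apoe, which microglia also make, was at 1130 FPKM in batch 1 and at 3.39 FPKM in batch 2. In limma with the block, the estimates of all 13 markers were above 0 and none passed, the largest being 4.74 for C1qc and 4.68 for C1qa (adjusted p = 0.628 for both). Without batch 3 these were 7.33 and 7.39 (adjusted p = 0.0671 for both). In PT 2 of the 13 passed the filter and neither the threshold, Tmem119 with -3.25 and Cd68 with 1.08 (adjusted p = 0.0624 and 0.716). With the block Tmem119 fell (-3.23, adjusted p = 0.0391), and the estimate of Cd68 was 0.12 without PT2. The part of these markers in the levels of the 10 genes was not tested.

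The 10 fibroblast and meningeal markers summed to 5481 and 8071 FPKM in the Zfp423 cultures of batches 1 and 2, against 856 and 725 FPKM in their AstroEGFR*, and to 376 FPKM in batch 3 against 6807 FPKM in AstroEGFR*3. In PT the sums were 52.3 to 741 FPKM. Compared with AstroEGFR*, the estimates of all 10 were below 0 in PT with a median of -3.94 (without AstroEGFR*3, 9 of 10 and a median of -2.33, and without PT4, 9 of 10 and -3.80), and 2 fell past the threshold, against 1.24% of all features, Ogn, a proteoglycan of connective tissue (-4.72, adjusted p = 0.0109), and Pdgfrb, a receptor of fibroblasts and pericytes (-4.14, adjusted p = 0.02). Without AstroEGFR*1 neither passed (adjusted p = 0.0728 for Ogn and 0.109 for Pdgfrb), and Pdgfrb also did not without AstroEGFR*3 (0.0845) or PT4 (0.0678). With the block 6 of the 10 passed, against 3.87% of all features, all of them lower: Ogn, Pdgfrb, Col1a1, Col1a2, Fn1 and Postn. With Zfp423 none passed, and the largest estimates were -2.70 for Lum and 1.21 for Col1a2, which encodes a chain of type I collagen. Lum was at -1.21 without batch 3, and Col1a2 at -0.037, 0.35 and 3.32 without batches 1, 2 and 3 in turn. The part of these cells in the results for the 10 genes was not tested.

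Of the 11 oligodendrocyte lineage markers, 8 passed the filter in PT and none the threshold, with estimates of 2.52 for Sox10 and 2.44 for Olig2, which are transcription factors of that lineage. Without PT4 the estimate of Sox10 was 1.08, and 3 markers were above 0 and 3 below, against 6 and 2 with all libraries. Their sum was 1432 FPKM in PT1 and 1796 FPKM in PT4, 161 and 156 FPKM in PT2 and PT3, and 109 to 311 FPKM in AstroEGFR*. PT1 and PT4 also had higher sums of the 10 astrocyte genes than PT2, PT3 and AstroEGFR*, at 2841 and 3839 FPKM. Fabp7 alone held 1964 and 2411 FPKM of these sums, so they do not speak for the 10 genes as a set. The part of the oligodendrocyte lineage in the levels of the 10 genes was not tested. With Zfp423, 6 markers passed the filter and none the threshold, with -2.94 for Olig1 and -1.87 for Olig2, both of which were listed at 0 in batch 2. Without batch 2 these were -1.23 and -0.077, and without batch 3 -4.93 and -4.25. Endothelial markers summed to at most 14.4 FPKM in any library, and the 1 that was tested, Flt1, did not pass in either comparison (0.31 in PT, from -0.20 to 0.83 with 1 library left out, and 0.67 with Zfp423, 0.13 without batch 2). Of the neuronal markers, 5 were tested in PT and 3 with Zfp423, none passed, and the estimates of largest size were -1.92 for Stmn2 and 1.60 for Nefl in PT and -1.73 for Stmn2 and -0.83 for Tubb3 with Zfp423. With 1 library left out, that of Nefl ranged from 0.86 (without PT3) to 2.85 (without AstroEGFR*2). That of Stmn2 in PT was -2.87 without AstroEGFR*2, and that of Tubb3 -0.50 without batch 3.

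**Figure D4:**
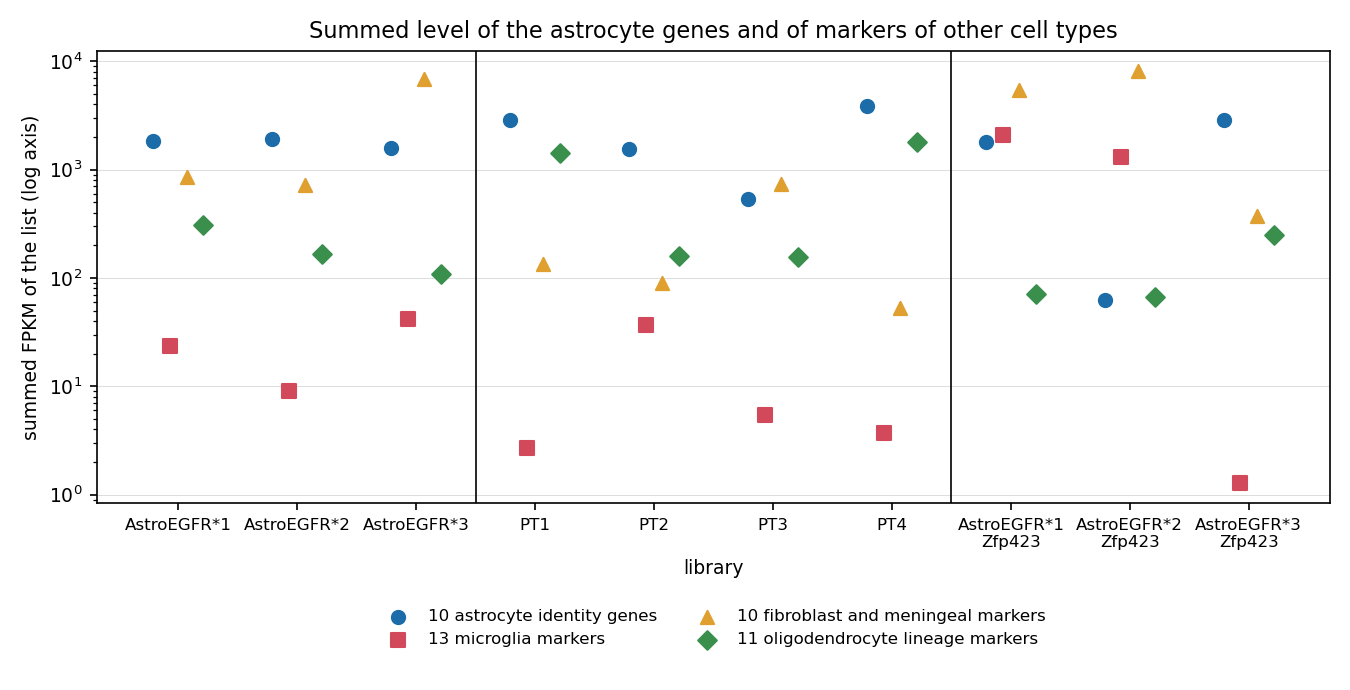
Summed FPKM of the 10 astrocyte genes and of 3 lists of markers of other cell types in each library, on a log axis. The microglia markers are above 1000 FPKM in the Zfp423 cultures of batches 1 and 2 and below 100 FPKM elsewhere, and the astrocyte genes are lowest, at 63.1 FPKM, in the Zfp423 culture of batch 2.

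A further list of 34 astrocyte genes, such as those for the potassium channel Kcnj10 and glutamine synthetase (Glul), was described in the same way. In PT 30 passed the filter, none passed the threshold, 15 estimates were above and 15 below 0, and the median was -0.02. The largest were 3.78 for Agt, the precursor of angiotensin, and 2.81 for Ntsr2, a neurotensin receptor (adjusted p = 0.0841 and 0.294). With the block 5 of the 30 passed, against 3.87% of all features: Agt (4.03) and Tril (2.02) rose, and Mlc1 (-1.33), Slc39a12 (-1.88) and Slc4a4 (-1.96) fell. With Zfp423 25 of 27 estimates were below 0 with a median of -0.96, none passed, and the largest were -3.46 for Sparcl1, a secreted matrix protein, and -2.85 for Atp1b2, a subunit of the sodium pump (adjusted p = 0.628 for both). In batch 2 alone, 21 of 25 were lower than in AstroEGFR*2 by at least 1 on the log2 scale, against 12.1% of all features. In batches 1 and 3 the counts were 7 of 28, against 8.1%, and 6 of 25, against 17.2%. Without batch 2, 10 of the 27 estimates were above 0 and 17 below, with a median of -0.40.

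Of the genes of reactive astrocytes, 13 of 22 in batch 2 with Zfp423 were higher than in AstroEGFR*2 and 9 lower, where 51.6% of all features were higher. In batch 1, 8 were higher and 16 lower, where 52.9% of all features were higher. In batch 3, 7 were higher and 15 lower, where 50.4% of all features were higher. In batch 2 Vim, the filament protein that reactive astrocytes share with many mesenchymal cells, was at 2833 FPKM against 3814 FPKM. Over all batches 7 of 25 estimates were above 0 and none passed, with 2.48 for Srgn, a proteoglycan of blood cells, and -2.30 for Serping1, a complement inhibitor (1.38 for Srgn without batch 2, and 3.80 and -1.46 without batch 3). In PT 17 of 25 were below 0 with a median of -0.85, and 1 of the 25 passed, against 1.24% of all features. This was Fbln5, an elastic fibre protein, which fell by 3.27 (adjusted p = 0.0109), from 29.6 to 52.4 FPKM in AstroEGFR* to 1.89 to 6.45 FPKM in PT. It did not pass without AstroEGFR*1 (adjusted p = 0.0738) or AstroEGFR*3 (adjusted p = 0.0519). The estimates of largest size in this list did not pass and were above 0: Serpina3n, a serine protease inhibitor of reactive astrocytes, was at 2.25 to 6.23 FPKM in AstroEGFR* and at 26.6 to 695 FPKM in PT (4.99, adjusted p = 0.0802), and Lcn2, an iron carrier, had 4.14 (adjusted p = 0.284). With the block 5 of the 25 passed, against 3.87% of all features: Serpina3n (4.57) and B3gnt5 (1.98) rose, and Fbln5 (-3.28), Emp1 (-2.65) and Ggta1 (-2.34) fell.

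Among 15 regulators of astrocyte genes, all were tested and none passed. In PT the largest estimates were -2.19 for Id3 and -1.54 for Id1, both targets of BMP signalling (adjusted p = 0.116 and 0.337), and with the block Id3 fell (-2.39, adjusted p = 0.0261). With Zfp423 they were -1.92 for Id1 and 1.51 for Lifr, a receptor of the cytokines that drive astrocyte formation (adjusted p = 0.628 and 0.733), and that of Lifr was -0.13 without batch 1 and 2.41 without batch 3. With Zfp423, 5 of the 15 estimates were above 0 and 10 below, with a median of -0.22, and without batch 3, 7 were above and 8 below with a median of -0.96. The transcription factor Sox9 was at 57.0, 16.2 and 37.0 FPKM in AstroEGFR* and at 12.6, 5.08 and 21.8 FPKM with Zfp423, lower in 3 of 3 batches, as were 15.2% of all features. Nfia was at 14.3, 15.0 and 13.8 FPKM and at 8.04, 3.65 and 13.4 FPKM. These 2 genes were picked for mention after their values were seen.

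Of 10 genes of radial glia and neural progenitors, 9 passed the filter in each comparison and none the threshold. In PT 6 estimates were above 0 (4 of 9 with the block, with PT1 and PT4 averaged, and without PT1, PT4 or AstroEGFR*3), the largest being 2.69 for Ptprz1, a receptor phosphatase, and 2.21 for Tnc, a matrix protein (adjusted p = 0.243 and 0.222). Without AstroEGFR*1 that of Tnc was 1.46, and with the block Tnc rose (2.46, adjusted p = 0.0449). With Zfp423 all 9 were below 0 with a median of -1.06, and the largest were -1.86 for Sox2, a transcription factor of neural progenitors, and -1.82 for Prom1 (adjusted p = 0.685 and 0.628). Without batch 2 these were -0.40 and -1.08, and without batch 3 that of Sox2 was -3.25. In batch 2, Sox2 was at 3.15 FPKM against 114 FPKM in AstroEGFR*2. Without batch 2, 3 of the 9 estimates were above 0 and 6 below, with a median of -0.40, and within batch 3, 6 of 8 were higher and 2 lower.

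The 10 genes did not follow 1 pattern over the 10 libraries. Likeness was measured as the root mean square difference between log2 profiles centred on their mean, over 12476 features. It is a description of libraries of which some share a batch and whose depth is unequal. The 10 libraries include the Zfp423 culture of batch 2, where Fabp7, Aldh1l1, Sox2 and Mlc1 were at 0.316, 1.69, 3.15 and 3.47 FPKM. Likeness without this library was not measured, so pairs of such genes may rest largely on it. Only Fabp7 had another of the 10 as its nearest feature, Aldh1l1, at 1.41 against a spread of 3.11 of Fabp7 itself, followed by Tspan15 and Mlc1 (1.57 and 1.62). Aldh1l1 was nearest to Sox2 (0.68), Tspan15 (0.71) and Atp6v0e2 (0.71). S100b was the 6th nearest feature to Slc1a3 (1.31 against a spread of 2.35), whereas Slc1a3 was the 675th nearest to S100b, whose own spread was 1.54. Both genes had Ntrk2 among their 3 nearest (1.00 and 0.74). The others of these sets were Plekhb1 and Pou3f1 for Slc1a3 (1.09 and 1.18) and Tmem176a and Pde9a for S100b (0.71 and 0.73).

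Aqp4 was nearest to Ttyh1 (0.60), Csdc2 (0.70) and 2900011O08Rik (0.73), and Aldoc to Spon1 (0.45), Lrrc4b (0.53) and Slc38a3 (0.81). For Gfap, Cacng8, Itga7 and Ociad2 were nearest, at 1.47, 1.47 and 1.5 against its own spread of 2.49. For Apoe these were Enpp5, Mlc1 and Abat, at 1.07, 1.10 and 1.10 against 2.09. For Gja1 and Slc1a2, whose own spread was small (0.83 and 1.06), the nearest features were Sf3b5, Tbl2 and Rtn4ip1 (0.27, 0.33 and 0.34) and Khk, Otud1 and Dnajb3 (0.60 each). The 2 glutamate transporters were among the least alike, with Slc1a2 ranked 10439th of the features nearest to Slc1a3.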

How the data were processed

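RNAseq values of 3 AstroEGFR*, 4 PT and 3 AstroEGFR* Zfp423 libraries were used. The authors deposited 1 matrix of FPKM values per gene symbol; the submitters' processing notes name TopHat 1.3, Cuffnorm and mm9. The labels name a TruSeq kit and a lentiviral Zfp423 vector, the paper stranded RiboZero libraries and a retroviral one. For the age of the pups the labels give postnatal day 5 and the paper a range of days that starts there. Samples were grouped by title. The titles do not give the batch of each PT, which was read from a figure of the paper.

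Features were kept where they averaged 1 FPKM or more over the compared libraries, and tested on log2(FPKM + 1), which understates changes of low genes, with limma 3.58.1 in R 4.3.3 (trend, two-sided, Benjamini-Hochberg over all features, threshold 0.05). PT were compared without a block and Zfp423 with the batch as a block, and each of the 10 genes also by exact permutation. FPKM hold no counts, so depth is known only in relative terms, from steps of low values in 41 of 45 pairs of libraries. The code was tested on simulated data. AstroEGFR* and PT of the same batch deviated together (correlations of deviations from 0.426 to 0.499), so the batches pair them. For Zfp423 the pairing comes from the titles. The same correlations were 0.241, -0.111 and -0.262 in batches 1 to 3, with up to 0.308 between unlike batches. Sex-linked genes ran with the titles for batch 2: Xist was at 20.4, 34.9 and 26.3 FPKM in its AstroEGFR*, PT and Zfp423 libraries. In every other library Xist was at most 0.0403 FPKM. Ddx3y, of the Y chromosome, was at most 0.114 FPKM in batch 2 and at least 14.1 FPKM elsewhere. These genes do not tell batches 1 and 3 apart. p-values measure the spread between single cultures.

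The 10 genes, the lists and their tests were chosen with earlier results of these data known, and lists get counts and medians only. All 10 genes are named; of other lists, the genes that passed, or otherwise the 2 of largest change, and the 3 features nearest to each gene. Genes that passed only with the block, Serpina3n and Lcn2 were added after their values were seen. Alternatives were a pseudocount of 0.1, no filter, median-ratio scaling, small RNA and histone features removed with rescaling, no trend, 1 fit of all 10 libraries, the block added or dropped, PT1 and PT4 averaged, and libraries left out. The block together with the removal, and permutation within batches, were added after the data were seen. Python 3.11.15 was used with numpy 2.4.6, pandas 2.3.3 and matplotlib 3.10.9.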

Additional observations from a re-analysis of the deposited data

Results flagged for a closer look

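In PT, Gfap in PT2 stood far below the other 3 libraries: the gap to the nearest was 0.939 of the range of the group on the log2 scale, above the 95% critical value of Dixon's test, which chance passes in about 1 in 20 groups. Of 14 values tested in this way, this was the only 1.

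Some genes went in opposite directions in different batches under the same comparison, by at least 1 on the log2 scale in every library of the batch against its AstroEGFR*, which leaves out Gfap and Apoe in PT because PT4 of batch 1 differed by only 0.77 and 0.044; with 1 library for each condition and batch (2 PT in batch 1), these differences were not tested. In PT, Slc1a3 differed by 4.07 in PT1, 4.61 in PT4 and 3.52 in PT2, but by -3.94 in PT3. S100b differed in the same libraries by 2.0, 3.41, 2.08 and -2.10. Fabp7 differed by 1.34 in PT1 and 1.63 in PT4, and by -1.38 in PT2 and -2.74 in PT3. With Zfp423, 3 genes were lower in batch 2 and higher in batch 3: Aldh1l1 (-5.80 and 1.47), Aldoc (-4.77 and 1.06) and Fabp7 (-9.90 and 2.28), and in batch 1 Aldh1l1 and Aldoc were also lower (-1.12 and -1.48). S100b and Apoe were higher in batch 1 (1.45 and 1.20) and lower in batch 2 (-1.47 and -4.88) and batch 3 (-2.36 and -1.17).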

How the results depend on the processing

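The number of features past the threshold in PT depended on the processing. It was 152 as reported, 82 with all 10 libraries in 1 fit, 59 with PT1 and PT4 averaged, 8 without both libraries of lowest depth, 7 (without AstroEGFR*1) to 123 with 1 library left out, 475 with the batch as a replicate block and 538 with the block and small RNA and histone features removed. Of the 10 genes, 1 (Aqp4, lower) passed under both fits with the block, and none under the other 15 alternatives. With Zfp423, 2 features passed with no replicate block, 51 without replicate 2 and 0 without replicate 1 or 3, and none of the 10 genes passed under any of 10 alternatives. Of the 10 genes, 7 kept their sign in PT and 7 with Zfp423 under all alternatives. The sign turned for Aldoc (-0.26 to 1.24 with 1 library left out, below 0 without PT4 or AstroEGFR*3), Fabp7 (-0.93 to 0.86, above 0 without AstroEGFR*2 or PT3, and 0.41 without both libraries of lowest depth) and Apoe (-0.27 to 0.73, below 0 without AstroEGFR*2, AstroEGFR*3, PT2 or PT4, -0.025 with the block and -0.084 with block and removal), and for Flt1 (-0.20 to 0.83, below 0 without AstroEGFR*1, PT1 or PT4, and -0.18 with PT1 and PT4 averaged). With Zfp423 and 1 replicate left out, it turned without replicate 2 for Aldh1l1 (-3.46 to 0.18), Fabp7 (-5.32 to 0.77) and Apoe (-3.03 to 0.014), without replicate 1 for Lifr (-0.13 to 2.41) and Col1a2 (-0.037 to 3.32), and without replicate 3 for Aqp1 (-2.86 to 0.075). Fbln5, Ogn and Pdgfrb kept their sign and lost the threshold under 4, 3 and 7 of 17 alternatives. Of the other genes named in PT by the rule, Tmem119 passed under 4 alternatives, Agt under 3 and Id3, Tnc and S100a4 under 2 each, in every case with the reported sign and including the block. The cause of these changes was not tested. Low values of the 2 shallow libraries limit what can be said of weakly expressed genes.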

Other observations

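Paralogues of the 10 genes, which belong to the same families, were not all alike. As a set they do not mark other cells, and Vim is also in the list of reactive astrocyte genes. None of the 16 tested passed in either comparison with limma. In PT the largest estimates were -4.72 for S100a4 and -3.80 for S100a6, calcium-binding relatives of S100b that fibroblasts and other mesenchymal cells express (adjusted p = 0.142 and 0.256), and both were listed lower in all 4 PT than in all 3 AstroEGFR* libraries, where PT and AstroEGFR* did not overlap for 14.8% of all features. S100a4 was at 422 to 750 FPKM in AstroEGFR* and at 0.656 to 78.7 FPKM in PT, and it passed with the batch as a block (-5.13, adjusted p = 0.049). With Zfp423 the largest were 2.32 for Aldh1l2, the mitochondrial relative of Aldh1l1 (adjusted p = 0.628, higher in 3 of 3 batches, and 1.24 without batch 2), and -1.29 for Aqp1, the water channel of choroid plexus (adjusted p = 0.774, -2.86 without batch 2 and 0.075 without batch 3). In the Zfp423 culture of batch 2, all 10 astrocyte genes were lower than in AstroEGFR*2. Of 17 paralogues, 15 were higher there, against 51.6% of all features, and 11 by at least 1 on the log2 scale, against 13%.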
